A study of Homo sapiens with 4 samples.

Results

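The genes described here are 10 genes linked to the FOXO transcription factors, out of 60617 genes in the deposited count table: DEPP1, TP53INP1, CCNG2, PIK3IP1, TXNIP, ARRDC4, SESN1, SESN3, FOXO1 and FOXO3. They were picked by name, with the values of the contrast below already known. FOXO proteins are forkhead transcription factors. When growth factors activate PI3K, the kinase AKT phosphorylates FOXO proteins and 14-3-3 proteins hold them in the cytoplasm. When that signal is weak, FOXO proteins enter the nucleus and turn on genes of cell cycle arrest, stress resistance, autophagy and catabolism, and they are known for their part in quiescence, the reversible exit from the cell cycle.

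The cells were SCC13, an established human line derived from a cutaneous squamous cell carcinoma, grown in CnT-07 medium and of genotype WT per the labels. Lentivirus carried a scrambled shRNA (shScr) into one group, called control, and a CELF2-targeting shRNA into the other, called knockdown. CELF2 is an RNA-binding protein that acts on splicing and mRNA stability. Each group had 2 polyA RNA libraries. The sources used here do not say whether the replicates came from separate cultures or whether both knockdown libraries carried the same shRNA. The p-values therefore reflect the spread between these libraries alone, and that spread may be technical.

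The libraries held from 17649090 to 27898889 counts. CELF2 itself had 1 count in control replicate 1 and 0 in the other libraries, so its counts do not check the labels. Keratinocyte markers were abundant in every library, with KRT5 between 5455 and 10770 CPM (depth-scaled counts, with TMM factors) and TP63 between 212 and 336 CPM. The sum of the 10 keratinocyte markers was 12620 and 19880 CPM in the controls and 27320 and 19470 CPM in the knockdown. It thus differed widely within each group. The defining markers MLANA, TYR and SOX10 of melanocytes, COL1A2, COL3A1, DCN and LUM of fibroblasts, and PTPRC and CD3E of immune cells were at 0 counts in every library. The summed level of the 6 fibroblast markers was 13.1 and 16.1 CPM in the controls and 37.6 and 20.7 CPM in the knockdown, nearly all of it COL1A1. The sum of the 5 melanocyte markers was 2.47 and 2.14 against 3.75 and 3.87 CPM, mostly PMEL. For the 5 endothelial markers it was 0.572 and 0.178 against 2.12 and 2.27 CPM, and for the 5 immune markers at most 0.168 CPM. The part of these differences between libraries in the results was not tested.

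The start regions of the members are shown first, because FOXO proteins bind the forkhead motif GTAAACA and because MondoA, the glucose-sensing regulator of TXNIP and ARRDC4, binds E-box-like elements. RefSeq promoter windows (GRCh38.p14, from 250 bases before to 50 bases after a transcription start) were found for 9 of the 10 members, 16 windows in all; TP53INP1 had no entry. Of these 9 genes, 3 held GTAAACA on either strand: DEPP1, PIK3IP1 and TXNIP. The same 7 letters occur in 3.42% of all 35116 windows. Capitals mark the forkhead motif on either strand and its shorter core (TGTTTNC). They also mark the TATA element (TATAA) and the E-box, spelled CACGTG. The last motif marked is a pair of E-box-like elements, each spelled CACGNG, with 5 bases between them. Every sequence reads 5′ to 3′ on the strand of the gene.
DEPP1, chr10:44978811-44979059, minus strand, bases -250 to -2 from the start: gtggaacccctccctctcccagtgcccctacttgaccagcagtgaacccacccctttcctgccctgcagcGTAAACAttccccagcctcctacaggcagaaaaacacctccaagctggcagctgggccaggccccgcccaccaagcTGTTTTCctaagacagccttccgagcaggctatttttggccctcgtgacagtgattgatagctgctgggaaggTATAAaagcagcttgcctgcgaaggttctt
PIK3IP1, chr22:31292457-31292481, minus strand, bases 8 to 32 after the second listed start: aagagaggcTGTTTACcagaacagc
TXNIP, chr1:145996629-145996729, minus strand, bases -150 to -50 from the first listed start: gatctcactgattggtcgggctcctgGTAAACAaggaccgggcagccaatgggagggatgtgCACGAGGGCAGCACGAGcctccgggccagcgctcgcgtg
ARRDC4, chr15:97960473-97960533, plus strand, bases -230 to -170 from the start: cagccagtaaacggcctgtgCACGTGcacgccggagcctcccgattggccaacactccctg

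In DEPP1 the forkhead motif began at -180, a second forkhead core at -104 and a TATA element at -31. In TXNIP the forkhead motif began at -124 and lay just before the paired E-box-like elements, which began at -88. That pair occurs in 20 of the 35116 windows (0.057%), and TXNIP was the only one of the 9 searched members with it. The pattern was added to the search after the data were seen, so nothing is read from its rarity. ARRDC4 held a single E-box at -210, as did CCNG2 at -30, and the E-box occurs in 7.26% of windows. An exact-letter search of these windows cannot show that ARRDC4 lacks other MondoA elements. The looser forkhead core, which also takes in every match of the full motif, was found in 6 of the 9 genes (DEPP1, PIK3IP1, TXNIP, SESN1, SESN3 and FOXO3) and in 18.0% of all windows. The TATA element was found in DEPP1, PIK3IP1 and FOXO3, against 20.4% of windows. A further forkhead variant, TGTTTTG, had 0 matches among the 9 searched members (4.92% of windows). The CCAAT box was found in ARRDC4, FOXO1, SESN1 and TXNIP (34.6%). A match is a string of letters and not a measured binding site, and genes with several listed starts had more than 1 chance to match.

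**Figure D1:**
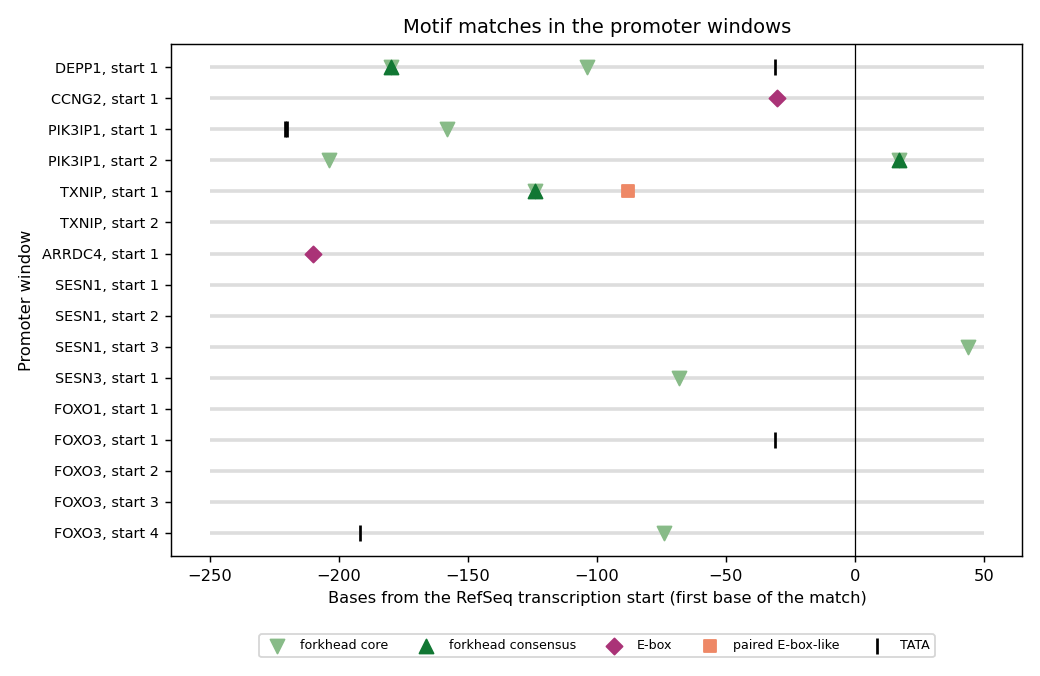
Positions of motif matches (first base of the match, in bases from the RefSeq transcription start) in the 16 promoter windows of 9 members, with symbols for each motif and a grey line for each window. The forkhead consensus appears in DEPP1 at -180, in TXNIP at -124 and in PIK3IP1 at 17, and the paired E-box-like elements only in TXNIP.

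The main comparison asks which transcripts differ between knockdown and control cells. In these 4 libraries DEPP1, TP53INP1 and PIK3IP1 stood several-fold higher in the knockdown and TXNIP stood higher with widely spaced controls, while CCNG2, SESN1 and ARRDC4 stood near their control level and FOXO1, FOXO3 and SESN3 slightly above it. Over all genes 2 of the 10 members had a Benjamini-Hochberg adjusted p under 0.05 in edgeR's quasi-likelihood test, DEPP1 and TP53INP1, both higher. Of all 15170 tested genes 0.877% were called, 0.606% higher and 0.27% lower. Since the members were chosen with this contrast known, nothing is read from that count, and the values below are a description. In bulk RNA, more cells of a kind and more RNA per cell cannot be told apart. All 10 members passed the filter on low counts.

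FOXO1 and FOXO3, the transcription factors themselves, had small fitted differences. FOXO1 (chromosome 13, 40469953 to 40666597) stood at 6.46 and 5.16 CPM in the controls and at 7.0 and 10.6 CPM in the knockdown. Both knockdown libraries were above both controls, but knockdown replicate 1 exceeded control replicate 1 by less than the controls differed. The fitted log2 fold change was 0.59 ± 0.33 (SE), and 0.26 without knockdown replicate 2. FOXO3 (chromosome 6, 108559835 to 108684774) stood at 50.8 and 40.5 CPM in the controls and at 55.0 and 56.9 CPM in the knockdown, a log2 fold change of 0.29 ± 0.19. Its highest control and lowest knockdown library nearly touched. The ratio of FOXO3 to FOXO1 counts within a library, which no scaling affects, was 7.85 in each control, 7.86 in knockdown replicate 1 and 5.39 in knockdown replicate 2. So the balance of the pair moved in 1 library only.

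DEPP1, a small protein induced by FOXO factors and by fasting or progesterone in other tissues, was counted 501 and 260 times in the control libraries and 1282 and 1325 times in the knockdown libraries. Scaled to depth, this was 17.9 and 15.4 CPM against 63.2 and 55.7 CPM. The groups were far apart and both pairs of replicates were close: the mean went from 16.7 ± 1.74 to 59.5 ± 5.28 CPM (SD, n = 2 each), a 3.56-fold difference. The log2 fold change was 1.83 ± 0.19 (SE) and stayed between 1.75 and 1.94 with any 1 library left out. DEPP1 lies on chromosome 10 (44970981 to 44978810, minus strand), and 695 of its 2979 exonic bases (23.3%) overlap exons of RASSF4 on the opposite strand in GENCODE v29. RASSF4, a Ras-association protein, was counted at 3.0 and 4.1 CPM in the controls and at 12.3 and 8.75 CPM in the knockdown, far below DEPP1. The sources used here do not give the strand setting of the counts, so reads from the shared exons cannot be assigned to 1 of the pair, and the part of this overlap in the DEPP1 values was not tested.

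TP53INP1, a stress protein that is linked to FOXO factors and promotes autophagy, was scarce in the control libraries, with 28 and 19 counts, and reached 293 and 185 counts in the knockdown libraries. The levels were 1.00 and 1.13 CPM in the controls, with exact Poisson 95% intervals of 0.665 to 1.45 and 0.679 to 1.76 CPM. In the knockdown they were 14.4 and 7.78 CPM, with intervals of 12.8 to 16.2 and 6.70 to 8.99 CPM, which cover counting error only. The knockdown replicates thus differed beyond counting error, yet the lower of them was still well above both controls. The log2 fold change was 3.38 ± 0.43 (SE), 2.88 without knockdown replicate 1 and 3.76 without knockdown replicate 2. TP53INP1 lies on chromosome 8 (94925972 to 94949411, minus strand) and shares no exonic base with another gene in GENCODE v29.

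PIK3IP1, a transmembrane inhibitor of PI3K (chromosome 22, 31281593 to 31292534), was the third gene with a several-fold difference. It stood at 6.82 and 6.05 CPM in the controls and at 35.8 and 18.2 CPM in the knockdown. The groups did not overlap, although the 2 knockdown libraries differed from each other by more than those of most genes. The log2 fold change was 2.06 ± 0.35 (SE), 1.51 without knockdown replicate 1 and 2.47 without knockdown replicate 2. Its exons share 36 bases with those of PIK3IP1-AS1, which had at most 3 counts in a library.

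TXNIP and ARRDC4 are alpha-arrestins that limit glucose uptake, and both are classical targets of MondoA; TXNIP also binds thioredoxin. TXNIP (chromosome 1, 145992435 to 145996600) stood at 225 and 391 CPM in the controls and at 548 and 669 CPM in the knockdown. Both knockdown libraries were above both controls, but the controls lay wide apart, and the log2 fold change of 0.98 ± 0.27 (SE) ranged from 0.63 with control replicate 1 left out to 1.45 with control replicate 2 left out. ARRDC4 (chromosome 15, 97960698 to 97973838) stood at 29.6 and 36.6 CPM in the controls and at 28.0 and 28.5 CPM in the knockdown, just below both controls. Its log2 fold change was -0.23 ± 0.19, and -0.05 without control replicate 2. The 2 arrestins therefore parted: TXNIP counts per ARRDC4 count were 7.58 and 10.7 in the control libraries and 19.6 and 23.5 in the knockdown libraries. This ratio is taken within each library and does not depend on the scaling.

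CCNG2, cyclin G2, an atypical cyclin that slows the cell cycle and is a classical FOXO target, did not separate the groups. It stood at 31.9 and 45.6 CPM in the controls and at 34.1 and 38.4 CPM in the knockdown, so both knockdown libraries fell between the controls. Its log2 fold change of -0.09 ± 0.22 (SE) changed sign with the control left out, to -0.34 without replicate 1 and 0.20 without replicate 2. The sestrins SESN1 and SESN3, which restrain mTORC1 through the GATOR complexes, did not separate the groups either. SESN1 was the steadiest member, at 13.97 and 12.6 CPM in the controls and 13.7 and 13.5 CPM in the knockdown (fitted difference of 0.03 ± 0.23 on the log2 scale, SE). SESN3 stood at 18.5 and 12.0 CPM in the controls and at 26.9 and 14.6 CPM in the knockdown (0.44 ± 0.35). In both groups its replicate 1 was the higher one, and without knockdown replicate 1 its log2 fold change was -0.06.

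**Figure D2:**
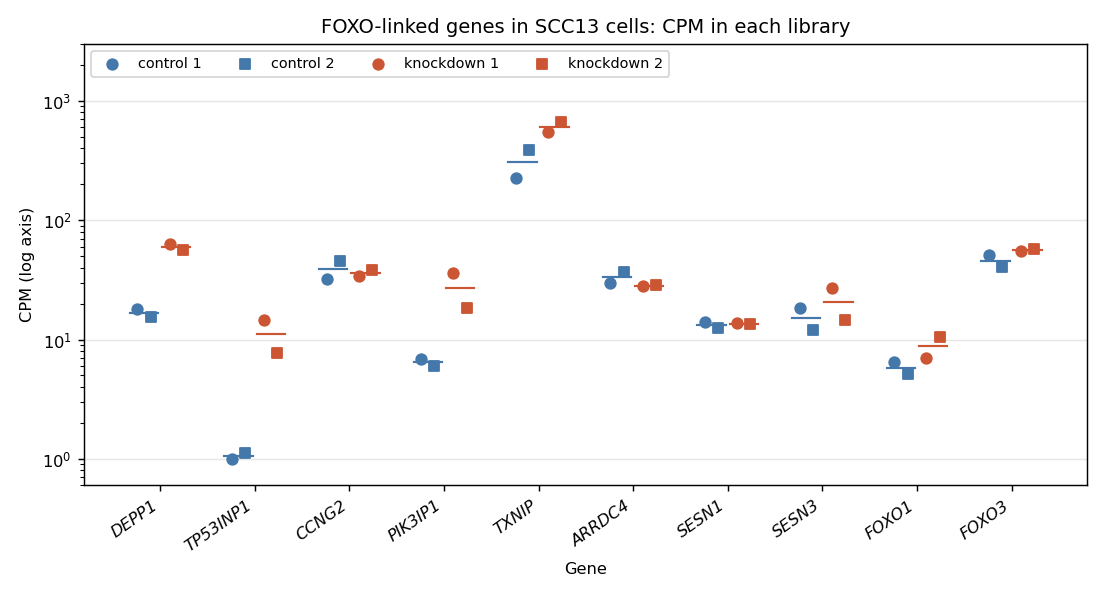
CPM of the 10 members in each library on a log axis, with blue symbols for control and orange for knockdown, circles for replicate 1, squares for replicate 2 and lines at the group means. DEPP1, TP53INP1 and PIK3IP1 show wide gaps between the groups, while CCNG2, SESN1 and SESN3 overlap.

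**Figure D3:**
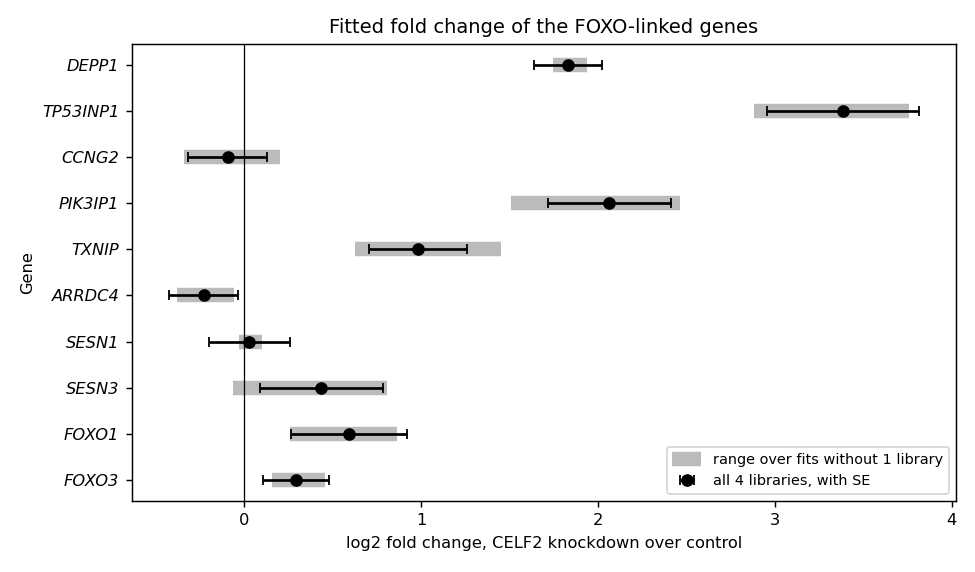
Fitted log2 fold change of knockdown over control for each member, with its SE, and in grey the range over the fits without 1 library. DEPP1 has the narrowest range of the 3 genes above 1.5, from 1.75 to 1.94, and the ranges of CCNG2, SESN1 and SESN3 include 0.

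By position alone, both knockdown libraries were above both controls for 6 members (DEPP1, TP53INP1, PIK3IP1, TXNIP, FOXO1 and FOXO3) and below them for 1 (ARRDC4). Over all tested genes the shares were 27.1% above and 27.8% below. The differences between replicates do not use the contrast. The median absolute log2 ratio between replicates was 0.298 in the controls and 0.234 in the knockdown for the members, beside 0.225 and 0.260 for all tested genes. The members were thus about as variable as other genes, with exceptions in single pairs. Between the controls TXNIP differed most, by more than 93.2% of tested genes. Between the knockdown libraries PIK3IP1, SESN3 and TP53INP1 differed most, by more than 94.7%, 93.1% and 92.8% of tested genes, and in each of these 3 knockdown replicate 1 was higher. FOXO1 went the other way, with knockdown replicate 2 higher.

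Levels of different genes were compared as RPKM, that is CPM per kilobase of merged GENCODE v29 exons; a gene with many rare exons is understated on this scale. TXNIP was the most abundant member by a wide margin, at 84.9 ± 32.5 RPKM in the controls (SD, n = 2 here and below). ARRDC4 followed at 8.13 ± 1.2 RPKM. FOXO3, DEPP1 and CCNG2 came next at 5.91 ± 0.936, 5.59 ± 0.585 and 5.18 ± 1.30 RPKM, and these 3 did not differ beyond their spread. SESN1 stood at 2.59 ± 0.191 RPKM, PIK3IP1 at 1.69 ± 0.143 and SESN3 at 1.44 ± 0.429, the last pair overlapping. FOXO1 stood at 0.933 ± 0.148 RPKM, and TP53INP1 was lowest at 0.187 ± 0.0159. In the knockdown TXNIP remained first at 168 ± 23.6 RPKM and DEPP1 stood second at 20.0 ± 1.77. FOXO3, PIK3IP1 and ARRDC4 lay together at 7.25 ± 0.170, 7.10 ± 3.27 and 6.94 ± 0.0832 RPKM. TP53INP1 reached 1.96 ± 0.830 RPKM, within the spread of SESN3 (1.96 ± 0.827) and FOXO1 (1.41 ± 0.404).

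**Figure D4:**
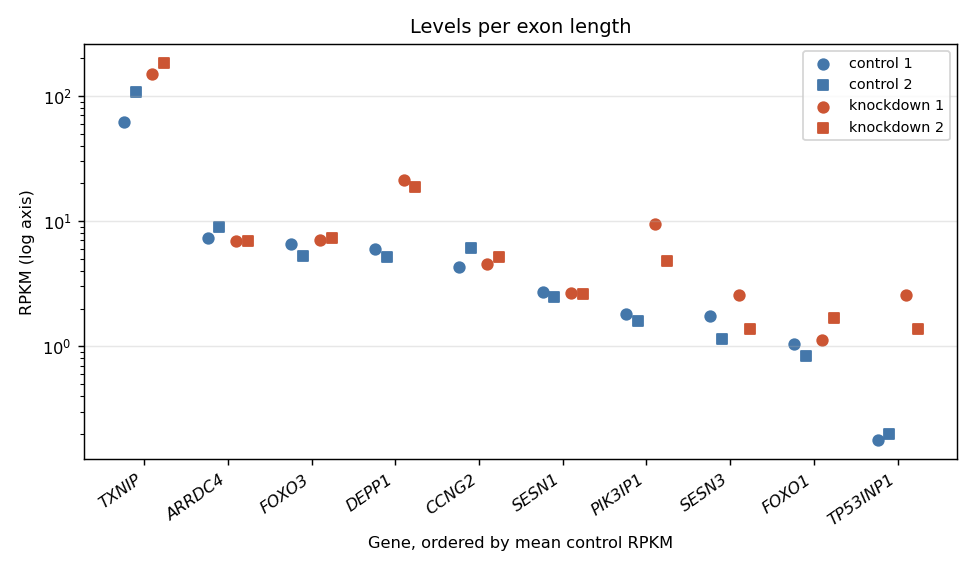
RPKM of each member in each library on a log axis, ordered by the mean control level. TXNIP is highest in all 4 libraries, DEPP1 is second in the knockdown libraries, and TP53INP1 is far below the others in the controls only.

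Genes that respond to FOXO factors but are not members were described from a list of 30, of which 29 were tested. Of these, 4 rose (13.8% beside 0.606% of all tested genes), 0 fell and 25 did not pass (edgeR quasi-likelihood test). The median log2 fold change of the list was 0.38, beside -0.0036 for all tested genes, and 23 of the 29 were above 0. Both knockdown libraries were above both controls for 15 of the 29, beside 27.1% of all genes, and below them for 1. This list and those below, like the members, were chosen with earlier results of these data known. Their counts, shares and medians are therefore a description, and no enrichment is read from them.

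TSC22D3, which encodes the glucocorticoid-induced leucine zipper protein, stood at 22.3 and 26.8 CPM in the controls and at 117 and 76.4 CPM in the knockdown, a 3.94-fold rise. TNFSF10, the death ligand TRAIL, stood at 13.0 and 11.3 CPM against 53.1 and 31.0 CPM, a 3.44-fold rise. The adjusted p was 0.0483 for both (edgeR, Benjamini-Hochberg adjustment). In these 2 genes, as in TP53INP1 and PIK3IP1, knockdown replicate 1 was the higher one.

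GABARAPL1, an ATG8-family protein of the autophagosome membrane, stood at 19.7 and 25.4 CPM against 61.4 and 60.3 CPM, a 2.70-fold rise (edgeR adjusted p = 0.0483). KLHL24, a substrate adaptor of a ubiquitin ligase that acts on keratins in the epidermis, stood at 12.7 and 12.5 CPM against 27.4 and 36.5 CPM, a 2.54-fold rise (edgeR adjusted p = 0.0498). The remaining genes ranged from a log2 fold change of -0.27 for PRDX3, a mitochondrial peroxidase, to 2.98 for FBXO32, a ubiquitin ligase subunit of muscle atrophy. FBXO32, singled out after its values were seen, had 21.3 and 3.38 CPM in the controls and 171 and 28.4 CPM in the knockdown, with replicate 1 far above replicate 2 in both groups (SE 0.96). It did not pass, but it did with the replicate block and without the filter on low counts. CDKN1B, the p27 inhibitor of cyclin-dependent kinases and a textbook FOXO target, stood at 31.8 and 23.4 CPM against 24.7 and 22.0 CPM, with no separation. Other inhibitors of these kinases, in the quiescence list below, did separate the groups. CDKN1A stood at 84.1 and 180 CPM against 268 and 277 CPM. CDKN1C stood at 3.22 and 6.77 CPM against 10.5 and 10.6 CPM. Neither of the latter passed.

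These calls rest on all 4 libraries, and KLHL24 did not pass without control replicate 2. Without control replicate 1 or without knockdown replicate 2, and with limma-voom, 0 of the 10 members and 0 of all 130 tested pathway genes passed. The list median stayed above 0 in each of those fits, and was 0.73 without control replicate 2 and 0.60 without knockdown replicate 1.

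**Figure D5:**
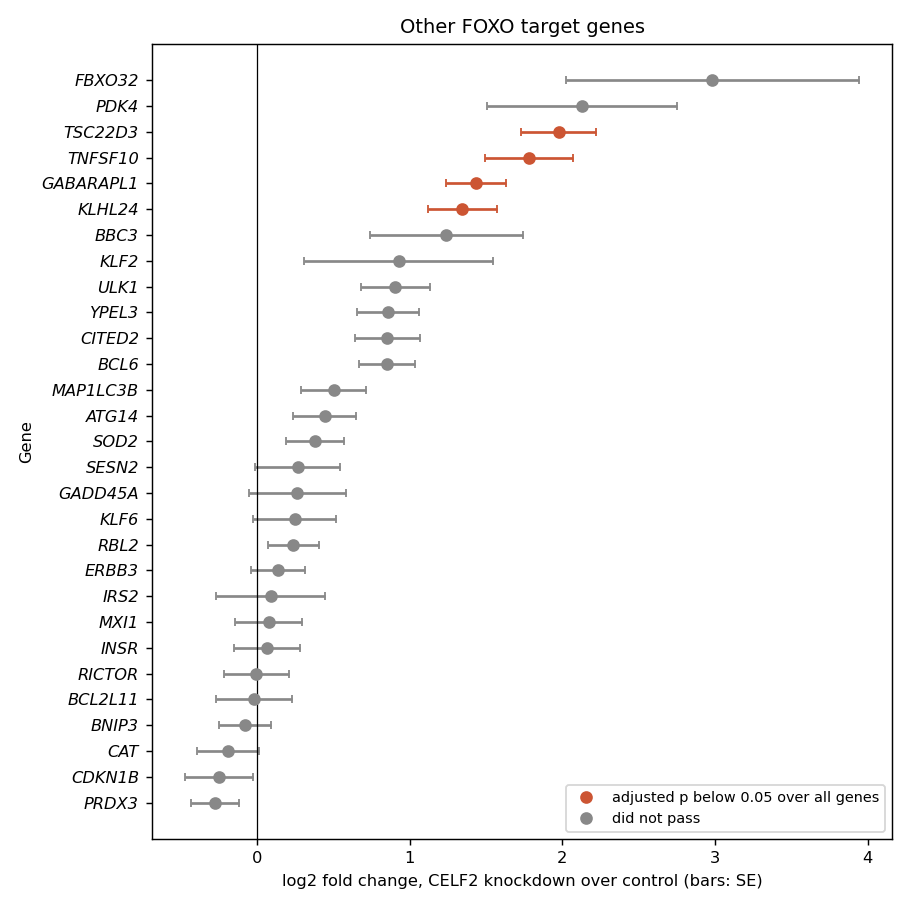
Fitted log2 fold change and SE of the 29 tested FOXO target genes that are not members, ordered by size, with genes past the adjusted p of 0.05 in orange. The 4 orange genes run from KLHL24 (1.35) to TSC22D3 (1.98), and 23 of the 29 points lie above 0.

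TP53INP2, the paralog of TP53INP1 and also a factor of autophagosome formation, rose as well. It stood at 21.4 and 23.5 CPM in the controls and at 67.8 and 54.2 CPM in the knockdown, a 2.72-fold difference (edgeR adjusted p = 0.0483), with clearly separated groups. In the list of cyclin G and TP53INP relatives it was the 1 gene of 7 that rose, beside 0.606% of all tested genes, and 0 fell. The median was 0.10, and -0.024 without control replicate 2. CCNG1, cyclin G1, stood at 91.6 and 66.8 CPM against 66.4 and 65.3 CPM. TP73, a transcription factor, stood at 3.07 and 5.52 CPM against 14.7 and 6.27 CPM. Neither passed.

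Of 19 regulators and relatives of FOXO, 0 passed in either direction, with a median log2 fold change of -0.20. Of these, 14 were below 0, among them 6 of the 7 genes of 14-3-3 proteins (SFN was above 0). Both knockdown libraries were below both controls for 11 of the 19 and above them for 4, beside 27.8% and 27.1% of all genes. FOXO6, the scarcest relative, stood at 1.36 and 0.475 CPM in the controls and at 4.29 and 2.74 CPM in the knockdown (edgeR adjusted p = 0.114). FOXM1, a forkhead factor of proliferating cells, stood at 236 and 158 CPM against 88.9 and 110 CPM (edgeR adjusted p = 0.0745). XPO1, the exportin that carries FOXO proteins out of the nucleus, stood at 402 and 298 CPM against 199.9 and 243 CPM (edgeR adjusted p = 0.125).

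In the PI3K-AKT pathway 0 of 22 tested genes passed and the median was -0.13. IRS1, an adaptor of the insulin receptor, had a fitted log2 difference of 1.14 ± 0.27 (SE), and IGF1R, a growth factor receptor, of 0.58 ± 0.16. Of 14 tested genes around MondoA and the alpha-arrestins 0 passed, with a median of -0.01. HK2, a hexokinase, stood at 122 and 115 CPM against 48.3 and 70.01 CPM (edgeR adjusted p = 0.0620). MLXIPL, the MondoA paralog ChREBP, and TXNRD1, thioredoxin reductase, had log2 fold changes of 0.89 ± 0.35 and 0.69 ± 0.19. MLXIP, which encodes MondoA, stood at 103 and 88.9 CPM against 117 and 90.0 CPM, with overlapping groups.

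Among the GATOR subunits and other sestrin partners 0 of 13 tested genes passed, with a median of -0.14 that was 0.032 without knockdown replicate 2. RRAGC, a Rag GTPase, differed by 0.53 ± 0.19 on the log2 scale (SE), and PRKAA1, a catalytic subunit of AMPK, and SEH1L had -0.55 ± 0.20 and -0.56 ± 0.18. Of 18 genes of quiescence and cell cycle exit 0 passed, and the median was 0.19, or -0.12 without knockdown replicate 2. Both knockdown libraries were above both controls for 8 of the 18 and below them for 4, beside 27.1% and 27.8% of all genes. BTG2, an antiproliferative factor, stood at 16.9 and 16.6 CPM against 32.5 and 33.5 CPM (edgeR adjusted p = 0.0576). DYRK1B, a kinase of quiescent cells, and YPEL5 had log2 fold changes of 1.37 ± 0.31 and 0.94 ± 0.23. The subunits LIN9, LIN37, LIN52, LIN54 and RBBP4, shared by the DREAM complex that represses cell cycle genes in quiescence, had log2 fold changes from -0.62 to -0.04. Among other listed genes of that complex, RBL2 had 0.24 ± 0.17, E2F5 0.26 ± 0.31 and E2F4 -0.19 ± 0.18.

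Of 8 proliferation markers 1 fell (MKI67, log2 fold change -2.10 ± 0.34, edgeR adjusted p = 0.0483), 0 rose and 7 were below 0, beside 0.27% of all genes called lower. The median log2 fold change was -1.4, and -0.95 without control replicate 1. For 7 of the markers both knockdown libraries were below both controls, beside 27.8% of all genes. The controls themselves lay wide apart for several markers. MKI67 stood at 584 and 308 CPM in the controls and at 80.9 and 127 CPM in the knockdown. Control replicate 1 was also far higher for CCNB1 (518 and 237 CPM), CCNA2 (270 and 119 CPM) and TOP2A (844 and 416 CPM). For CCND1 it was the lower control (196 and 230 CPM). PCNA, the sliding clamp of replication, stood at 424 and 320 CPM against 156 and 187 CPM, and CCNE2, a cyclin of S phase entry, at 23.3 and 16.9 CPM against 7.05 and 8.67 CPM. Neither passed. The part of the number of cycling cells in the values of the members was not tested.

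By likeness of profile, the genes closest to DEPP1 over the 4 libraries were DUSP10, NOTCH3, PRTN3, AQP3 and MIR200CHG, with root mean square differences of the centred log2 CPM from 0.0523 to 0.131 among 3052 candidates. AQP3, for example, stood at 10.6 and 10.5 CPM in the controls and at 36.9 and 34.3 CPM in the knockdown. The genes closest to TP53INP1 were WFDC21P, KRT16P2, CYP1B1, CALHM3 and ALPP, with differences from 0.127 to 0.220. CYP1B1 stood at 9.04 and 8.73 CPM against 69.9 and 49.9 CPM, with knockdown replicate 1 the higher, as for TP53INP1. PRTN3, WFDC21P and CALHM3 had 3 counts or fewer in a control library. The log2 fold change of PRTN3 was 3.33, beside 1.83 for DEPP1. Those of WFDC21P and CALHM3 were 4.73 and 4.66, beside 3.38 for TP53INP1. The 0.5 CPM added before the log shrinks differences near the floor, so the likeness of these genes is uncertain. With 4 libraries such likeness is a description of these samples.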

How the data were processed

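PolyA RNA libraries (TruSeq, per the labels' protocols) of 2 control and 2 knockdown SCC13 samples were grouped by their titles. The authors deposited raw read counts per gene for 60617 genes; HISAT2, edgeR and GRCh38 are named in the submitters' processing notes, without versions; these sources do not give the counter, annotation and strand setting. The counts were fitted with edgeR 4.0.16 (R 4.3.3; TMM, filterByExpr minimum count 10, quasi-likelihood test, Benjamini-Hochberg adjustment over 15170 genes, threshold 0.05). Genes varied between replicates with a common biological coefficient of 21.6%. CPM used TMM-scaled totals; log profiles added 0.5 CPM. On simulated data in this design, 198 of 200 genes changed by a log2 fold of 2 were recovered among 14933 genes, with 212 genes called. The changed genes were drawn from well-counted genes only, so the recovery of scarcer genes and smaller changes was not tested. Of the table's gene IDs, 58542 were in GENCODE v29 (GRCh38), the source of positions and exon lengths. Reads in exons shared with another gene are uncertain; beside DEPP1 this concerns, among others, SESN1 (7.09% of exonic bases), FOXO1 (4.32%), SESN3 (0.88%), PIK3IP1 (0.946%), and GABARAPL1, TSC22D3, FOXM1, XPO1, SEH1L, HK2, RRAGC, TP73, CCNE2, WFDC21P, CYP1B1 and ALPP. SOD2, with more than 1 row, was taken by its current gene ID.

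The members and lists were chosen with earlier results of these data known, and the paired E-box-like, CCAAT and TGTTTTG searches were added after the data were seen; protein sequences were not analysed here. Named genes are the 10 members, of each list the genes past the threshold and otherwise the 3 with the smallest p, and the 5 profiles nearest to DEPP1 and to TP53INP1 (mean of at least 1 CPM, range of at least 1 on the log2 scale); other genes were named after their values were seen. Some genes that this rule names are left out here. Alternatives were DESeq2 1.42.0, limma-voom (limma 3.58.1), other scalings, no filter, a replicate block and leaving out each library. Floors and Poisson intervals cover counting error only; 3 counts corresponded to 0.107 to 0.178 CPM.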

Additional observations from a re-analysis of the deposited data

How the results depend on the processing

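The number of genes called over all genes was 133 of 15170 and depended strongly on the settings. It was 207 with DESeq2 size factors, 394 with library totals, 2139 without the low-count filter, 1386 with the DESeq2 Wald test, 0 with limma-voom (3402 genes at an unadjusted p below 0.05, smallest adjusted p 0.0558), and between 0 and 616 with 1 library left out. Called members went from 2 to 3 with each other scaling (PIK3IP1 added), to 4 without the filter and with the DESeq2 test (TXNIP added), to 0 with limma-voom, and to between 0 and 4 with 1 library left out. Pathway genes called higher and lower, 5 and 1 here, were 27 and 10 without the filter, 18 and 9 with the DESeq2 test, 0 and 0 with limma-voom, 7 and 3 with library totals, and from 0 to 9 and from 0 to 7 with 1 library left out. Samples that share a replicate number are not said to share a culture or a day. Replicate differences correlated by 0.20 across genes between the groups; with the replicate block 1579 genes were called, 4 of them members, and 23 pathway genes were higher and 9 lower. A fit on 3 libraries assumes that the lone sample varies like the other group.

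Of 110 refitted member values, 100 kept their direction and moved by less than the replicate SD, 7 moved further and 3 changed sign: CCNG2 (from -0.34 to 0.20 with 1 library left out), SESN1 (-0.028 to 0.10) and SESN3 (-0.061 to 0.81). Each of 88 refitted list medians was set against the replicate SD of its own list median. Of these, 74 moved by less than that SD, 12 moved further and 2 were labelled as reversed. A change of sign was labelled as reversed only where the median with all libraries exceeded that SD. Other changes of sign are therefore within the 74 or the 12. With 1 library left out, sign changes were seen for GATOR and sestrin partners (-0.13 to 0.032), quiescence (-0.12 to 0.47) and cyclin G and TP53INP relatives (-0.024 without control replicate 2). The median of MondoA and alpha-arrestins, -0.012 here, was above 0 with upper-quartile scaling (0.045), with library totals (0.049), without the filter (0.0035), without control replicate 1 (0.012) and without CELF2 knockdown replicate 1 (0.0021). The causes were not tested. Each group had only 2 libraries, which limits the precision of every value.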
